A study of Rattus norvegicus with 24 samples.

Results

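The miR-17 and miR-19 seed families were followed in rat serum through 5 names: the miR-17 seed members rno-miR-17-5p, rno-miR-20a-5p, rno-miR-93-5p and rno-miR-106b-5p, and the miR-19 seed member rno-miR-19b-3p. These 5 microRNAs (miRNAs) were taken by name, by a rule that uses no measured value but with earlier results of these data known, from 753 mature miRNA names in the tables, and the loci of 1 name were summed (7 loci in all). All 5 were among the 136 names that had enough counts to be tested. The serum came from 23 male Wistar Kyoto rats, 1 small RNA library per rat: 5 on fish oil exposed to ozone, 6 on fish oil in filtered air, 6 on the normal diet exposed to ozone and 6 with normal food and filtered air. Fish oil made up 6% of the enriched diet by weight, the other diet was the facility's standard chow, and each was fed for 8 weeks from 4 weeks of age. Ozone was set at 0.8 ppm (0.8045 ppm as measured) for 4 h on each of 2 days. Because no other oil was fed in the groups used here, fish oil cannot be told apart from the other ways in which the diets may differ, and rats shared cages in pairs that the labels do not name.

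A miRNA guides an Argonaute protein to messenger RNAs that pair with its seed, the bases near its 5′ end, and lowers their translation and stability. The miR-17 and miR-19 families come from related polycistronic hairpin clusters. In mouse and human cells these clusters are known for driving proliferation and survival downstream of MYC and for their part in B cell, heart, lung and vessel development. The miR-17 seed is known to repress the cell cycle inhibitor p21 and the proapoptotic protein BIM. In blood, miRNAs are carried in vesicles, lipoproteins and Argonaute complexes that blood cells and tissues release. In serum, fewer releasing cells and less release per cell cannot be told apart.

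The mature sequences show what joins and what separates the members. They are RefSeq entries (GRCr8 annotation), written 5′ to 3′ with the seed, bases 2 to 8, in capitals. The miR-17 seed members share 1 seed and the miR-19 members another, and miR-19a-3p is added as the seed relative of miR-19b-3p.
rno-miR-17-5p: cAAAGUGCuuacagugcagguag
rno-miR-20a-5p: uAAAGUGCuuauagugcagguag
rno-miR-93-5p: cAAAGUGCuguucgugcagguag
rno-miR-106b-5p: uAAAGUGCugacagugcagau
rno-miR-19b-3p: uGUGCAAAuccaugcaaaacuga
rno-miR-19a-3p: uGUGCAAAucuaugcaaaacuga

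Positions below count from 1 at the 5′ end, with the base of the first-named miRNA given first. From miR-17-5p to miR-20a-5p the differences were C1U and C12U. From miR-17-5p to miR-93-5p they were U10G, A11U, C12U and A13C, a run just past the seed. From miR-17-5p to miR-106b-5p they were C1U, U10G and G20A over the 21 shared positions, and miR-106b-5p is 2 bases shorter. MiR-19b-3p and miR-19a-3p differ by C11U alone. A RefSeq mature sequence was matched for 688 of the 753 names. Of those, 5 held the miR-17 seed: the members and rno-miR-20b-5p, which had 57 counts over all libraries and did not pass the filter. The miR-19 seed was held by 2 names, miR-19b-3p and miR-19a-3p.

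The members lie in 3 clusters, given here on build rn5 as the files give them; in each locus the end minus the start equals the mature length, so 1 of the printed ends lies 1 base outside the miRNA. On chromosome 12, miR-93-5p was at chr12:21365223-21365246 and miR-106b-5p at chr12:21365432-21365453, in a cluster with miR-25-3p that spans 472 bases. In the GRCr8 annotation all 3 lie within the span of the protein-coding gene Mcm7, a subunit of the replicative helicase; whether they are intronic was not looked up. On chromosome 15, miR-17-5p was at chr15:103640915-103640938, miR-20a-5p at chr15:103641372-103641395 and miR-19b-3p at chr15:103641540-103641563, in the miR-17-92 cluster of 762 bases, which lies within no protein-coding gene of GRCr8. On chromosome X, the related cluster of 850 bases held second loci of miR-17-5p (chrX:140167783-140167806) and miR-19b-3p (chrX:140167238-140167261). RefSeq lists the same mature miR-17-5p sequence for Mir17 and, on chromosome X, Mir106a.

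The chromosome 15 locus held 89.7% of the counts of miR-17-5p and 87.8% of those of miR-19b-3p. The chromosome X locus of miR-17-5p held 10.3% of its counts (396 over all libraries), and between 2.63% and 24.1% in single libraries. These shares rest on few reads per library, and their differences between groups were not tested. How reads that match both loci were divided between them is not stated, so the loci are reported as sums. The X locus share of miR-17-5p averaged 6.37% ± 2.77 on fish oil in ozone (SD, n = 5) and 11.2% ± 6.36 on fish oil in air (n = 6), against 15.6% ± 6.37 on the normal diet in ozone and 8.50% ± 2.45 on the normal diet in air (n = 6 each).

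Libraries held 23279 to 94264 miRNA counts. Totals averaged 33302 ± 7385 on fish oil in ozone and 37264 ± 11332 on fish oil in air, against 63357 ± 20129 on the normal diet in ozone and 65638 ± 15674 for normal food and air (SD). The read totals implied by the deposited RPM values were not lower on fish oil in this way. They averaged 4.48e+06 ± 1.49e+06 on fish oil in ozone and 5.85e+06 ± 1.65e+06 on fish oil in air. On the normal diet they averaged 4.48e+06 ± 1.95e+06 in ozone and 5.28e+06 ± 1.77e+06 in air (SD). Why the miRNA totals differed was not tested. Levels below are CPM, the counts of a miRNA relative to all miRNA counts of its library with edgeR's trimmed mean of M values (TMM) scaling. A count of 3, the lowest told from 0 here, equalled 28.3 to 117 CPM. Such floors cover counting error alone, since reads without molecular identifiers are not independent molecules.

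Together the 5 members made up 1.43% ± 0.456 of the miRNA counts on fish oil in ozone (n = 5) and 1.98% ± 0.734 on fish oil in air, against 1.91% ± 0.715 on the normal diet in ozone and 1.80% ± 0.361 on the normal diet in air (SD, n = 6 each). Ranked by mean CPM among the 136 tested miRNAs, miR-19b-3p was at place 29, miR-93-5p at 33, miR-17-5p at 43, miR-20a-5p at 55 and miR-106b-5p at 114. MiR-106b-5p was near the limit of counting, with 3 to 48 counts per library. The order was the same in the mean CPM of each group, although the libraries of miR-19b-3p and miR-93-5p overlapped in every group, and those of miR-17-5p and miR-20a-5p in every group but the normal diet in air. Levels of different miRNAs also depend on how well each sequence is captured in a library, so this order is one of read counts.

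**Figure D1:**
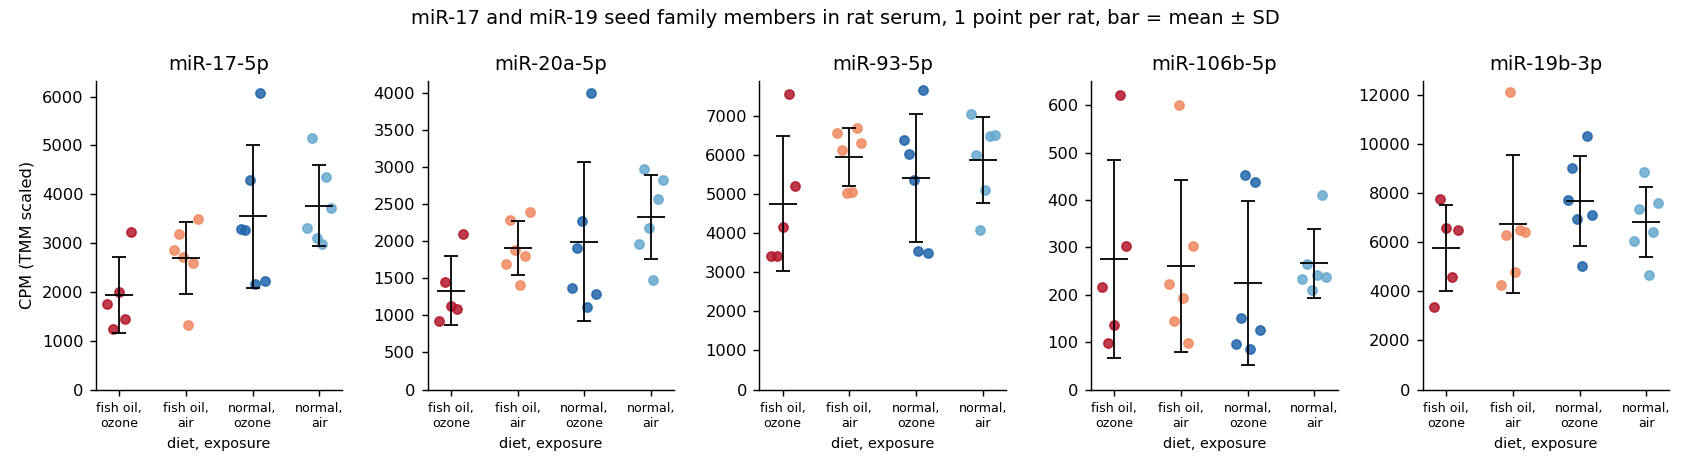
Level of each member in each rat (y axes, CPM after TMM scaling, each starting at 0) by diet and exposure (x axes); 1 point per library, with the mean and SD as bars. The miR-17-5p points on fish oil in ozone lie between 1249 and 3217 CPM, and on the normal diet in ozone between 2152 and 6072 CPM, while the miR-93-5p and miR-106b-5p groups overlap over most of their ranges.

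Of the 5 members, miR-17-5p was lower on fish oil and the other 4 did not pass the test. Levels of miR-17-5p, the first miRNA of the chromosome 15 cluster, were 1755, 1249, 2003, 1439 and 3217 CPM in the 5 fish oil rats exposed to ozone, against a lowest of 2152, a median of 3272 and a highest of 6072 CPM on the normal diet in ozone. In air they ran from 1329 over a median of 2781 to 3490.3 CPM on fish oil, against 2986 over 3513 to 5145 CPM on the normal diet. In each exposure, 4 of the fish oil libraries were below every normal diet library, but the groups overlapped.

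Averaged over exposures, miR-17-5p fell by 0.68 on the log2 scale in fish oil rats (SE 0.20; 0.625 times the normal diet level; edgeR quasi-likelihood adjusted p = 0.00725), and all 11 fish oil libraries were below the mean log2 level of the normal diet rats of their exposure. Of the 136 miRNAs tested, 36.8% were called in this comparison and 16.9% were called lower, so 1 called member of 5 is near the background, and miR-17-5p stood at place 29 by p. Under ozone the difference was -0.87 (SE 0.29, adjusted p = 0.0261, lower in 5 of 5), where 22.8% of miRNAs were called and 10.3% called lower; without fish oil ozone 3, 12 were called in place of 31. In air it was -0.48 (SE 0.27, adjusted p = 0.213, lower in 6 of 6) and did not pass; there 5.88% of miRNAs were called and 5.15% called lower. Those 8 calls in air became 3 without fish oil air 4 or 5, 4 without fish oil air 6 or normal air 5, 5 when normal air 6 was left out and 15 when fish oil air 3 was. The difference between both exposures was itself tested as the interaction, -0.39 (SE 0.39, edgeR adjusted p = 0.916).

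The averaged call for miR-17-5p was lost when libraries were scaled to their miRNA totals (-0.54, edgeR adjusted p = 0.0742), and it held under each of the other 8 alternative settings and without any 1 of the 23 libraries. The call under ozone was less stable: it was lost with miRNA total scaling (-0.85, edgeR adjusted p = 0.0867), with the chromosome 15 locus alone (-0.74, adjusted p = 0.0754), with the compared groups alone in the fit (-0.87, adjusted p = 0.0671), and without any 1 of 6 libraries (fish oil ozone 1, 3, 4 or 5, normal ozone 3 or 5; highest adjusted p = 0.117).

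MiR-20a-5p, which differs from miR-17-5p at 2 bases and comes from the same chromosome 15 cluster, showed a smaller difference. It measured 923, 1446, 1125, 1089 and 2094 CPM on fish oil in ozone, against 1119 to 4006 CPM (median 1637) on the normal diet in ozone. In air it lay between 1412 and 2391 CPM (median 1845) on fish oil, against 1480 to 2976 CPM (median 2377) on the normal diet. The groups overlapped in both exposures. The averaged log2 difference was -0.44 (SE 0.20, edgeR adjusted p = 0.0887, lower in 8 of 11), with -0.58 (SE 0.30, adjusted p = 0.166) in ozone and -0.29 (SE 0.28, adjusted p = 0.484) in air. Without fish oil ozone replicate 6, its highest library in that group, the averaged difference was -0.56 with an edgeR adjusted p of 0.0291, the 1 of 23 such fits that passed the threshold, and without normal ozone replicate 5 it was -0.27 (adjusted p = 0.264).

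The chromosome 12 members did not pass the test in any comparison, and their averaged diet differences were nearest to 0 of the 5. MiR-93-5p, the most abundant miR-17 seed member in serum, measured 3417, 3419, 4164, 7545 and 5190.2 CPM on fish oil in ozone, against 3491 to 7653 CPM (median 5690.0) on the normal diet in ozone. In air it measured 5026 to 6681 CPM (median 6208) on fish oil, against 4075 to 7054 CPM (median 6239) on the normal diet. Its averaged log2 difference was -0.09 (SE 0.16, adjusted p = 0.718), and 2 SE to either side ran from -0.41 to 0.24. MiR-106b-5p measured 215, 98.6, 135, 622 and 304 CPM on fish oil in ozone, against 84.7 to 452 CPM (median 139) on the normal diet in ozone. In air it measured 98.98 to 601 CPM (median 208) on fish oil, against 209 to 410 CPM (median 239) on the normal diet. With so few counts its averaged difference of 0.09 had an SE of 0.35 (adjusted p = 0.850), and 2 SE to either side ran from -0.61 to 0.79, so its diet difference was known only coarsely.

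MiR-19b-3p, the member with the miR-19 seed and the most abundant of the 5, also did not pass. It measured 3355, 7758, 6573, 4589 and 6495 CPM on fish oil in ozone, against 5017 to 10313 CPM (median 7431) on the normal diet in ozone. In air it measured 4272 to 12127 CPM (median 6354) on fish oil, against 4681 to 8848 CPM (median 6869) on the normal diet. The averaged log2 difference was -0.22 (SE 0.18, adjusted p = 0.357, lower in 9 of 11), with -0.42 (SE 0.26, adjusted p = 0.234) in ozone and -0.02 (SE 0.24, adjusted p = 0.949) in air. Over the 5 members the median averaged difference was -0.22, beside 0.06 over all 136 miRNAs.

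No member passed the test of ozone against air on either diet. In these comparisons and in the interaction 0% of the 136 miRNAs were called by edgeR; at an unadjusted p under 0.05 there were 10 on fish oil, 4 on the normal diet and 6 for the interaction, none of them a member, and DESeq2 called 0, 1 (miR-22-3p, named after its value was seen) and 0. On fish oil the log2 differences between ozone and air were -0.48 for miR-17-5p (SE 0.29), -0.52 for miR-20a-5p (SE 0.30), -0.33 for miR-93-5p (SE 0.24), 0.02 for miR-106b-5p (SE 0.53) and -0.23 for miR-19b-3p (SE 0.26). On the normal diet they were -0.09, -0.23, -0.12, -0.18 and 0.17 in the same order, with SE between 0.22 and 0.46. The lowest edgeR adjusted p of a member was 0.667 on fish oil and 0.939 on the normal diet. The diet and ozone comparisons share libraries, so their values are not independent.

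**Figure D2:**
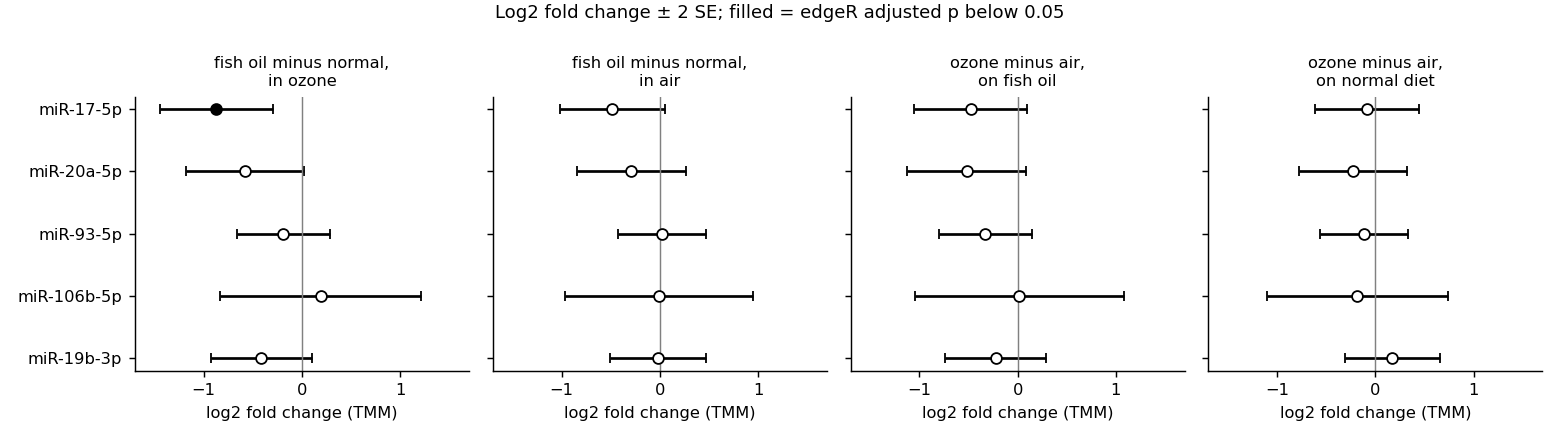
Log2 fold change of each member (x axes, TMM scaling) in the 4 comparisons between groups; points are edgeR estimates, bars 2 SE to either side, and filled points have an adjusted p below 0.05. MiR-17-5p under ozone (-0.87) is the filled point, and the bars of miR-106b-5p are the widest.

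Ratios between members within a library do not depend on how libraries are scaled, and they are given as descriptions with no test. The ratios of miR-17-5p to miR-93-5p alone or to miR-20a-5p alone were not among those planned. MiR-17-5p made up 23.6% ± 6.75 of the reads of the 4 miR-17 seed members on fish oil in ozone (SD, n = 5) and 24.5% ± 4.16 on fish oil in air, against 31.5% ± 2.24 on the normal diet in ozone and 30.7% ± 3.34 on the normal diet in air (n = 6 each). Its share lay below the normal diet median in all 11 fish oil libraries and below every normal diet library in 5 of them, and 8 of the 12 normal diet libraries lay above every fish oil library. MiR-93-5p took the complementary place, with 56.8% ± 8.31 and 55.4% ± 5.64 on fish oil in ozone and in air, against 49.3% ± 5.83 and 48.1% ± 5.55 on the normal diet in ozone and in air. Shares of the same sum are tied, so a lower miR-17-5p share by itself raises the others. The level of miR-93-5p did not pass the diet test (averaged log2 difference -0.09, edgeR adjusted p = 0.718). The share of miR-20a-5p was 16.5% ± 4.99 on fish oil in ozone and 17.6% ± 1.77 on fish oil in air, against 17.3% ± 3.18 on the normal diet in ozone and 19.01% ± 3.13 on the normal diet in air, which differed by less than the SD.

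With 0.5 counts added to each side, the log2 ratio of miR-17-5p to miR-93-5p was -0.96, -1.44, -1.05, -2.37 and -0.69 in the 5 fish oil rats exposed to ozone, and averaged -1.19 ± 0.40 on fish oil in air, against -0.64 ± 0.27 on the normal diet in ozone and -0.64 ± 0.31 on the normal diet in air. The lowest ratio was in fish oil ozone 5, in which miR-93-5p was the highest of its group. The log2 ratio of miR-17-5p to miR-20a-5p, encoded in the same chromosome 15 cluster, averaged 0.51 ± 0.45 on fish oil in ozone and 0.45 ± 0.28 on fish oil in air, against 0.88 ± 0.22 on the normal diet in ozone and 0.70 ± 0.22 on the normal diet in air. The log2 ratio of miR-19b-3p to the sum of miR-17-5p and miR-20a-5p averaged 0.81 ± 0.52 on fish oil in ozone and 0.50 ± 0.54 on fish oil in air, against 0.55 ± 0.40 on the normal diet in ozone and 0.16 ± 0.32 on the normal diet in air. The groups overlapped.

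**Figure D3:**
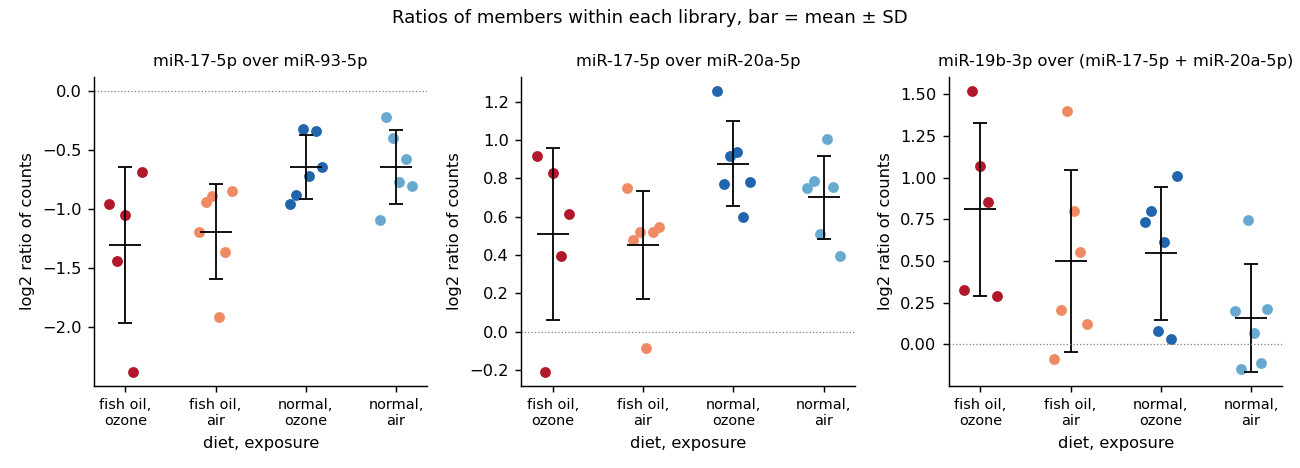
Log2 ratio of counts between members within each library (y axes) by diet and exposure (x axes); 1 point per rat, with the mean and SD as bars. The ratio of miR-17-5p to miR-93-5p is below the normal diet median of -0.68 in all 11 fish oil libraries, and the ratio of miR-17-5p to miR-20a-5p is below its own normal diet median in 9 of 11.

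The cluster mates did not all move alike. In the averaged diet comparison miR-92a-3p, the last miRNA of the chromosome 15 cluster, fell by 1.09 on the log2 scale in fish oil rats (SE 0.23, edgeR adjusted p = 0.000656, lower in 11 of 11), more than miR-17-5p, though the difference between them was not tested. MiR-92a-3p averaged 7937 ± 3699 CPM on fish oil in ozone and 11337 ± 4175 on fish oil in air, against 21470 ± 8090 on the normal diet in ozone and 19034 ± 6228 on the normal diet in air. MiR-19a-3p, encoded between miR-17-5p and miR-20a-5p, showed 0.01 (SE 0.22, adjusted p = 0.954). MiR-363-3p, which RefSeq and the files place in the X cluster, fell by 1.09 (SE 0.38, adjusted p = 0.0216); it had 45 counts or fewer in every library and 0 in fish oil ozone 3. Its call was lost with miRNA total scaling (-0.99, adjusted p = 0.0598) and without normal ozone replicate 6 (-0.82, adjusted p = 0.0674). MiR-25-3p of the chromosome 12 cluster, which shares its seed with miR-92a-3p and miR-363-3p, showed -0.12 (SE 0.15, adjusted p = 0.541). Of the tested miRNAs of the chromosome 12 cluster, counting miR-106b-3p, 0 of 4 were called, and of those at the chromosome 15 cluster 2 of 5 were, beside 36.8% of all miRNAs. MiR-18a-5p, with 171 counts in all, was too scarce to test, and the names miR-106a-5p and miR-18b-5p were not in the tables used.

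The other strands of the member hairpins were scarce, with 1 exception. MiR-106b-3p had 1123 counts over all libraries, against 303 for miR-106b-5p, so the 3p strand was the more abundant in reads, and its averaged diet difference was 0.07 (SE 0.21, edgeR adjusted p = 0.805). MiR-17-1-3p had 57 counts, miR-17-2-3p 11, miR-93-3p 20, miR-19b-1-5p 3, and miR-20a-3p and miR-19b-2-5p had 0.

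Across the 23 libraries, the nearest pattern to miR-17-5p among the members was that of miR-20a-5p, with a Spearman rho of 0.86 on log2 CPM, and 0.83 for deviations from group means. All miRNAs of a library share its scaling and depth, so these values are descriptions. MiR-93-5p and miR-19b-3p had a rho of -0.06. Outside the members, the most alike were miR-130b-3p (0.75) and miR-128-3p (0.74) for miR-17-5p, miR-339-5p (0.81) and miR-301a-3p (0.77) for miR-20a-5p, miR-1839-5p (0.75) and miR-210-3p (0.72) for miR-93-5p, miR-16-5p (0.58) and miR-3559-5p (0.54) for miR-106b-5p, and miR-19a-3p (0.79) and miR-223-3p (0.71) for miR-19b-3p. For deviations from group means these values were 0.52, 0.64, 0.71, 0.80, 0.76, 0.76, 0.45, 0.55, 0.77 and 0.48 in the same order. For miR-19b-3p the nearest was thus its seed relative and cluster mate.

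The scale to which libraries are set bears on every member. With libraries scaled to the read total implied by the deposited RPM values, the median averaged diet difference of all miRNAs moved to -0.87, from 0.06 with TMM, and 4 of 5 members were called lower, as were 70 of all 136 miRNAs. Relative to that median, miR-17-5p was at -0.76, miR-20a-5p at -0.55, miR-93-5p at -0.14, miR-106b-5p at 0.00 and miR-19b-3p at -0.21. With TMM, the same values relative to the median were -0.74, -0.50, -0.15, 0.03 and -0.28. With miRNA total scaling, where the median was 0.17, they were -0.72, -0.48, -0.16, 0.01 and -0.23. The distance of each member from the median miRNA therefore changed by at most 0.07 between these scalings in the averaged comparison. It was less stable elsewhere, with a largest change of 0.34 for diet under ozone and 0.25 for diet in air. For ozone against air the largest was 0.43 on fish oil and 0.21 on the normal diet, and for the interaction 0.66. All of these were for miR-106b-5p, and miR-17-5p changed by 0.20 under ozone and 0.28 for the interaction. In the averaged comparison the members' own signs and calls did change. MiR-93-5p was at 0.01 and miR-106b-5p at 0.19 with miRNA total scaling, and miR-106b-5p was at -0.87 with the implied read total.

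**Figure D4:**
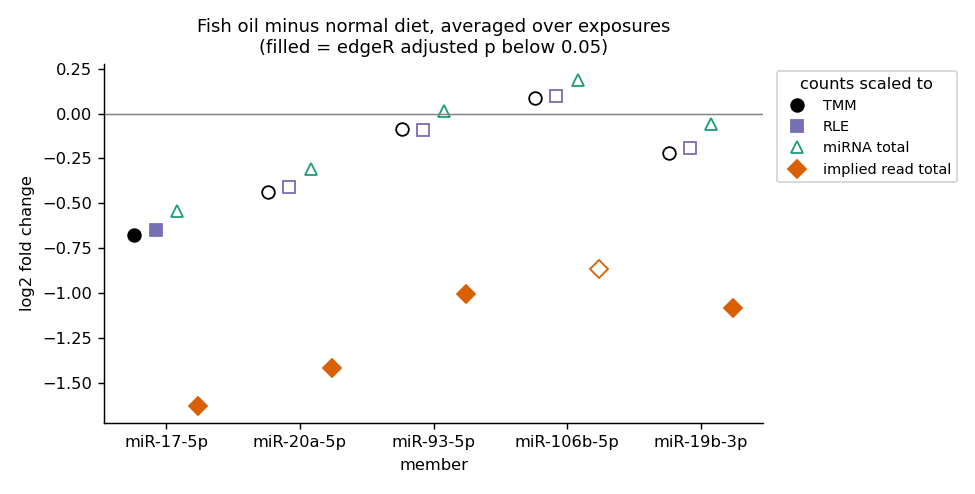
Averaged log2 fold change on fish oil relative to the normal diet (y axis) for each member (x axis) under 4 ways of scaling the libraries, shown by marker shape and colour; filled markers have an edgeR adjusted p below 0.05. With the implied read total all 5 members are between -0.87 and -1.63, and with miRNA total scaling no member is filled.

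The summed level of platelet markers differed with diet beside these results, and its part in them was not tested. Of 8 listed platelet miRNAs 7 were measured. Their summed level was 140404 to 193374 CPM on fish oil in ozone and 147708 to 244010 CPM on fish oil in air. On the normal diet it was 272144 to 408173 CPM in ozone and 259740 to 420063 CPM in air, with no overlap between diets. A sum follows its most abundant names, and which of the 7 carry it is not given here. Of the 7 tested, 3 were called lower and 1 higher, and their median averaged log2 difference was -0.25. Among all 136 miRNAs 16.9% were called lower and 36.8% in either direction. The erythrocyte list, which holds the cluster mates miR-25-3p, miR-92a-3p and miR-363-3p, had 2 of 7 tested called higher and 2 called lower. The 2 called lower were the mates miR-92a-3p and miR-363-3p already given above, and the 2 called higher were no cluster mates. Its summed level overlapped between diets, as did that of the leukocyte list. Of 5 leukocyte miRNAs tested, 0 were called higher and 1 lower, and of 3 liver miRNAs 0 were called higher and 1 lower. The liver sum was 29149 to 67555 CPM on fish oil in air, against 63371 to 189601 CPM on the normal diet in air. In ozone it was 63656 to 161292 CPM on fish oil, against 47638.5 to 137702 CPM on the normal diet. The median averaged log2 difference of the liver list was -0.62. MiR-223-3p is in both the platelet and the leukocyte list. The red cell index (log2 of miR-451-5p over miR-23a-3p) averaged -2.19 ± 1.29 on fish oil in ozone and -1.88 ± 0.64 on fish oil in air, against -2.79 ± 1.07 on the normal diet in ozone and -2.14 ± 0.56 on the normal diet in air. With that index in the fit, the averaged miR-17-5p difference was -0.66 (edgeR adjusted p = 0.0121).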

How the data were processed

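Small RNA was read from 100 µl of serum per rat, with 10 ng of RNA per library and 50 cycles, per the labels' protocols. The authors deposited expected counts per mature miRNA locus, and RPM on an unstated read total plus an offset. The tools named in the submitters' processing notes are Bowtie 1.0.0, Partek and bcl2fastq, with build rn5; the annotation used and the handling of multiply matching reads were not given in the sources. Of 832 loci, 50 hold fractions. Loci of 1 name were summed and rounded. Of 24 labelled samples 23 were used, and replicate 2 of fish oil ozone had no values in the data used. The implied read total (counts over RPM) was 2243915 to 7729936.

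EdgeR 4.0.16 in R 4.3.3 (TMM, filterByExpr with minimum count 10 and minimum total 15, robust quasi-likelihood F test, two-sided) was fitted to all 23 libraries with 1 mean per group, with Benjamini-Hochberg adjustment across all 136 tested miRNAs per comparison (threshold 0.05). Each SE of an edgeR difference was worked back from the test, as the absolute log2 difference over the square root of its F statistic. The averaged diet comparison was run on simulated data with changes in random directions and no shift of all miRNAs. That run does not test the choice of scaling or the other comparisons. Alternatives were other scalings, no filter, DESeq2 1.42.0, limma 3.58.1 on log2(RPM + 1) and log2(RPM + 0.1), 1 locus per name, the red cell index, the compared groups alone and each library left out. Named were the members, their cluster mates, seed relatives and other arms, and the 2 most alike miRNAs by Spearman rho. Members, lists and rules were chosen with earlier results of these data known. Nothing says how cages or batches fall on the groups. The p-values rest on the spread between rats and take each rat as independent, although rats shared cages in pairs.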

Additional observations from a re-analysis of the deposited data

Results flagged for a closer look

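A single library stood far from the rest of its group in 2 of the 20 sets of a member and a group, where chance gives about 1 in 20. For rno-miR-106b-5p, normal air replicate 5 had 410 CPM, and its gap to the next library was 0.721 of the group's range (critical value 0.625). For rno-miR-19b-3p, fish oil air replicate 3 had 12127 CPM, with a gap of 0.719 of the range (critical value 0.625). No interaction of diet and ozone passed the test for any member.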

How the results depend on the processing

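Of the members' log2 differences and those of the cluster mates, 259 values under other settings kept their direction and their side of the threshold, 5 lost a call, 23 gained one and 46 changed sign; of the values without 1 library, 722, 7, 1 and 75 did so. The number of members called on fish oil, averaged over exposures, was 0 with miRNA total scaling and 4 with the implied read total, with log2(RPM + 1) and with log2(RPM + 0.1), beside 1; under ozone it was 0 with miRNA total scaling, the largest locus or the compared groups alone, 3 with the implied read total and 4 with either RPM setting, beside 1; in air it was 1 with those 3 settings, beside 0. Leaving out 1 library gave 1 to 2 calls averaged over exposures and 0 to 1 under ozone. The cause was not tested; with the RPM or the implied read total, the median of all miRNAs moves too. Over all miRNAs, 27 were higher and 23 lower on fish oil averaged over exposures, 29 and 13 with miRNA total scaling, and 1 and 70 with the implied read total. Under ozone 17 were higher and 14 lower, and 0 and 46 with the implied read total. In air 1 was higher and 7 lower, 11 and 3 with miRNA total scaling, 1 and 37 with the implied read total, and 7 and 8 with DESeq2.

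Of the values that changed sign under other settings, those of rno-miR-106b-3p with the implied read total or RPM passed the threshold (adjusted p 0.0161 to 0.0167) and the others did not. Averaged over exposures, rno-miR-106b-5p (0.09) was at -0.87 with the implied read total, -0.010 with no filter, -0.57 and -0.78 with RPM + 1 and RPM + 0.1, and -0.12 with the red cell index. For rno-miR-19a-3p (0.01) these were -0.92, -0.07, -0.82, -0.87 and -0.0051, and for rno-miR-106b-3p (0.07) the first 4 were -0.85, -0.021, -0.77 and -0.85. Rno-miR-93-5p (-0.09) was at 0.015 with miRNA total scaling. Under ozone rno-miR-106b-5p (0.19) was at -1.11 with the implied read total, -0.51 and -0.59 with RPM and -0.041 with the red cell index. In air rno-miR-93-5p (0.02) was at -0.79 with the implied read total, -0.079 with no filter and -0.75 and -0.77 with RPM; rno-miR-106b-5p (-0.01) at 0.024 with RLE, 0.28 with miRNA total scaling, 0.026 with DESeq2 and 0.035 with 1 locus; and rno-miR-19b-3p (-0.02) at 0.022 with RLE, 0.25 with miRNA total scaling and 0.022 with DESeq2. For ozone on fish oil, rno-miR-106b-5p (0.02) was at -0.066 with RLE, -0.22 with miRNA total scaling, -0.17 with the implied read total, -0.064 with DESeq2 and -0.055 with 1 locus. For ozone on the normal diet, rno-miR-17-5p (-0.09) was at 0.030 with miRNA total scaling, 0.28 with the implied read total and 0.13 with either RPM setting; with the implied read total rno-miR-20a-5p was at 0.12, rno-miR-93-5p at 0.20 and rno-miR-106b-5p at 0.31, and rno-miR-93-5p was at 0.13 with either RPM setting. The interaction of rno-miR-106b-5p (0.20) was -0.19 with miRNA total scaling and -0.48 with the implied read total.

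Without 1 library, these values spanned 0: averaged over exposures, rno-miR-106b-5p -0.11 to 0.27, rno-miR-19a-3p -0.17 to 0.13 and rno-miR-106b-3p -0.070 to 0.14; under ozone, rno-miR-106b-5p -0.24 to 0.55; in air, rno-miR-93-5p -0.085 to 0.079, rno-miR-106b-5p -0.41 to 0.15 and rno-miR-19b-3p -0.27 to 0.13; for ozone on fish oil, rno-miR-106b-5p -0.51 to 0.43 and rno-miR-19b-3p -0.40 to 0.032; for ozone on the normal diet, rno-miR-17-5p -0.29 to 0.053, rno-miR-93-5p -0.25 to 0.0048 and rno-miR-106b-5p -0.53 to 0.016; for the interaction, rno-miR-20a-5p -0.49 to 0.036 and rno-miR-106b-5p -0.28 to 0.60.

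No paired analysis was possible because the replicate numbers follow accession order within each group and name no shared rat, cage or day. Depth limited rno-miR-106b-5p most, with 3 to 48 counts per library.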
